A study of Mus musculus with 10 samples.

Results

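The motile cilium genes were taken from the deposited gene table of a mouse lung study as all protein-coding genes whose symbol starts with Cfap, Dnah, Dnai, Rsph or Drc followed by a digit, together with Foxj1, Mcidas, Ccdc39, Ccdc40, Hydin, Spag6l, Tekt1 and Tekt2. That rule found 60 of the 53342 genes in the table, and it used names only, not measured values. RNA sequencing was done on whole lungs of mice labelled BALB/c, female and 12 weeks old. A PBS group (n = 4) received phosphate-buffered saline. An HDM group (n = 3, labelled DMSO+HDM) was given house dust mite extract intranasally for 3 weeks, 5 days in each, after the vehicle dimethyl sulfoxide. The SF-3-030+HDM group (n = 3) was given 10 mg/kg of the compound SF-3-030 by the same route 30 min before each mite dose, and the series title places the compound among agents that target selected functions of the kinase ERK. No group received the compound without allergen, and the PBS label names no DMSO. The labels do not say that the replicates were separate animals, so p-values measure the spread between these libraries, which may be technical.

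Motile cilia beat on the surface of multiciliated cells and move mucus out of the airways. Multicilin, the product of Mcidas, starts the multiciliated cell fate, and the forkhead factor FOXJ1 switches on the genes of the beating apparatus. Inside the cilium, outer and inner dynein arms make the microtubule doublets slide, while radial spokes, a central pair of microtubules and the nexin link between doublets turn the sliding into bending. Proteins inside the doublets, among them the tektins, hold the tubes together. By these roles the genes fall into 2 regulators, 5 outer arm dyneins, 15 inner arm dyneins and their tethers, 5 rulers and nexin link proteins, 10 radial spoke genes, 8 central pair genes, 9 doublet inner proteins and tektins, and 6 others.

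Total counts were between 38667118 and 59083942 per library. Some libraries went against their labels. The Y-linked gene Ddx3y was above 10 CPM (counts scaled to the sum of their library, as explained with the processing) in PBS replicate 2 and HDM replicates 2 and 3, all labelled female. Genes known to differ between mouse strains split the 3 SF-3-030+HDM libraries from the other 7. Which side departs from the label BALB/c was not tested. H2-Ea-ps had 331 to 432 CPM in SF-3-030+HDM against 0.107 to 0.953 CPM in the other 7, and Trim12a had 0.199 to 0.363 CPM against 18.7 to 30.6 CPM. Gbp2b stood at 46.4 to 47.9 CPM against at most 1.40 CPM, and Tpsab1 at 11.9 to 15.4 CPM against at most 0.281 CPM. In every comparison with the SF-3-030+HDM group, genotype and treatment therefore cannot be told apart. Summed olfactory and vomeronasal receptor reads, which lung is not known for, ran from 15.8 to 31.8 CPM in SF-3-030+HDM, 87.4 to 222 CPM in HDM and 48.0 to 453 CPM in PBS, highest in PBS replicates 1 and 4 and HDM replicate 3.

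Promoter sequences were matched in RefSeq (GRCm38.p6) for 49 of the 60 genes, as 56 windows from 250 bases before to 50 after a start. They are shown because RFX factors, which act with FOXJ1 on ciliary genes, recognise sites built around GTTGCC. In capitals below is that motif, which reads GGCAAC where it lies on the opposite strand. The 4 chosen are Mcidas, which starts the programme, Hydin and Cfap161, each lower in SF-3-030+HDM than in PBS, and Dnah8, the gene that was higher. They do not represent the lower genes, of which 14 had a window and 5 of those held GTTGCC.
Mcidas (chr13:112993618-112993917, forward strand): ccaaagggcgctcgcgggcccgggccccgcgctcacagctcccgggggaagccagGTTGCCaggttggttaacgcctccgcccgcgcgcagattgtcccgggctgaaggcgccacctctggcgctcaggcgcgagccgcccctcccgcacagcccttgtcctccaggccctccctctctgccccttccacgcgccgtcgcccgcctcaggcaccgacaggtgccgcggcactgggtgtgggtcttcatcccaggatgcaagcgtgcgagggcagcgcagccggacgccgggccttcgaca
Hydin (chr8:110266727-110267026, forward strand): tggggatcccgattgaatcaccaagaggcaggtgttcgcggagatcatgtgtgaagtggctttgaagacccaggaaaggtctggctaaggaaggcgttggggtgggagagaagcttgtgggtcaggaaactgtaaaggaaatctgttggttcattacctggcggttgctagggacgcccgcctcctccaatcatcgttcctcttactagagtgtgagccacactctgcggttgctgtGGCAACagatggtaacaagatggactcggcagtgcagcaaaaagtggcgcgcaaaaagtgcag
Cfap161 (chr7:83794790-83795089, reverse strand): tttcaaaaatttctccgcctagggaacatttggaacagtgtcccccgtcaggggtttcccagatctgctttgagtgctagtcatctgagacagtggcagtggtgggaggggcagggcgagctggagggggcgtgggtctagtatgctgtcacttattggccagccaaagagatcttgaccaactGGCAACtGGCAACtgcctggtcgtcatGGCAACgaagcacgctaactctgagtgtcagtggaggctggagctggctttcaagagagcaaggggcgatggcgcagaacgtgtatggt
Dnah8 (chr17:30626686-30626985, forward strand): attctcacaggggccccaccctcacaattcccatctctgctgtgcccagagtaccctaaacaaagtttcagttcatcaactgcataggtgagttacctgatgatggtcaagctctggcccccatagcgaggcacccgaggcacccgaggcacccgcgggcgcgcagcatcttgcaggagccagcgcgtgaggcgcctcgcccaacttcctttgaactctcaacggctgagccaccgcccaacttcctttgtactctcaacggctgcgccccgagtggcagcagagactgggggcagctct
GTTGCC was found on either strand in 20 of the 56 windows (35.7%), against 12.5% of all 32851 promoter windows. By gene, 18 of the 49 held it. The Cfap161 window held 3 copies and the Dnah8 window none. That Dnah8 window lies inside the annotated span of the gene, which begins at 30624354. It also holds the annotated start of Glo1, on the opposite strand, at 30626871. The beginning of the annotated Dnah8 span was not searched. The forkhead core TGTTTAC, searched on both strands, was in 3 of the 56 windows (5.36%), against 3.65% of all windows. A pair of GTTNCC and GGNAAC with at most 3 bases between them, a search whose letters overlap GTTGCC, was in 0 of the 56, against 0.80% of all. That search allowed no other letter at the fixed positions. A near match, such as gttgctgtGGCAAC in the Hydin window, was not counted, so the result does not show that paired sites are absent. Of the 15 genes lower in SF-3-030+HDM than in PBS, 14 had a window and 5 of those held GTTGCC; of the 43 not called, 33 had a window and 13 held it. A match describes letters in a window and shows no binding.

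The genes were detected in these lungs almost without exception. Of the 60, 59 passed the filter on low counts and were tested. Rsph6a, a spoke head gene known from sperm, was left out at 0 to 0.0618 CPM. Per length of annotated exon, scaled to the same total in every library, Foxj1 stood highest in PBS with a mean of 144.7, followed by the spoke head gene Rsph1 at 65.8 and the doublet protein gene Cfap126 at 35.6. The lowest tested were Dnah14 at 0.233, Dnah17 at 0.328 and Dnah7b at 0.543. Summed over all 60, the level was 1133 to 1212 CPM in PBS, 772 to 1157 CPM in HDM and 690 to 1216 CPM in SF-3-030+HDM, so the group ranges overlapped. CPM is a share of all counts of whole lung. Fewer ciliated cells, less RNA per ciliated cell and more RNA from other cells therefore cannot be told apart.

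**Figure D1:**
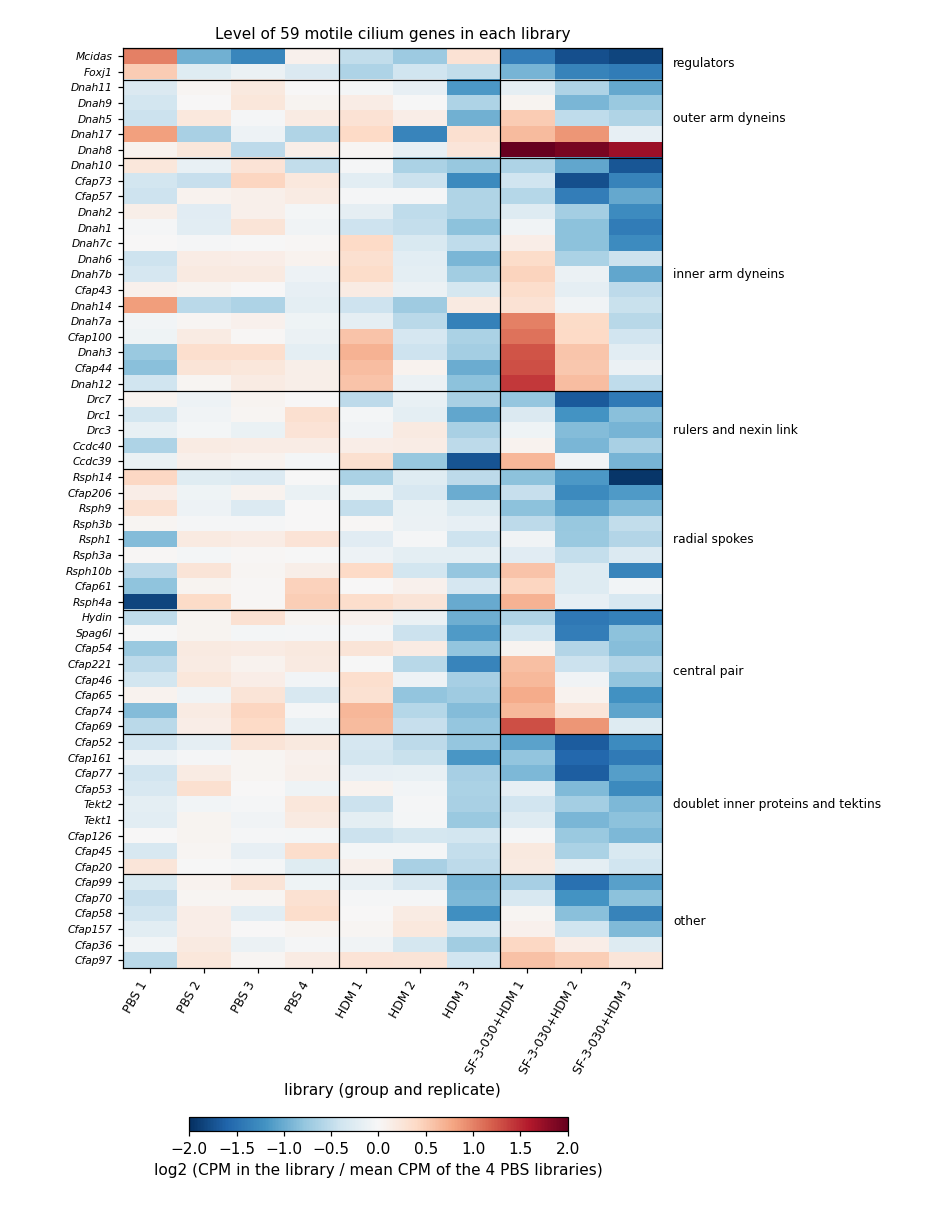
Each row is a gene, each column a library, and colour gives log2 of the CPM over the mean of the 4 PBS libraries, with rows grouped by role and limits of the scale at -2 and 2. Most genes are blue (below the PBS mean) in PBS replicate 1, in all 3 HDM libraries, narrowly so in HDM replicate 1, and in SF-3-030+HDM replicates 2 and 3, and Dnah8 is red in all 3 SF-3-030+HDM libraries.

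Libraries of the same group differed from each other across nearly the whole set. The first SF-3-030+HDM library was the highest of its group in 57 of the 59 genes, against 43.4% of all genes tested, and its level was a median of 1.64 times the mean of the other 2. HDM replicate 3 was the lowest of its group in 48 of the 59, against 31.5% of all genes tested, at a median of 0.636 times the mean of the other 2. Relative to the PBS mean, the median gene stood at 0.990, 0.872 and 0.627 in the HDM libraries and at 1.04, 0.624 and 0.553 in the SF-3-030+HDM libraries. In PBS the medians were 0.822, 1.04, 1.03 and 1.02. Over all genes tested, the same medians were 1.17, 0.926, 0.916 and 1.002 in PBS, 0.935, 0.808 and 0.944 in HDM, and 0.932, 0.916 and 0.835 in SF-3-030+HDM. The cilium genes of PBS replicate 1, HDM replicate 3 and SF-3-030+HDM replicates 2 and 3 thus had medians below those of all genes in the same library, while those of HDM replicate 2 did not. Below the PBS mean were 41, 22, 19 and 25 of the 59 genes in the PBS libraries, 30, 49 and 55 in the HDM libraries, and 28, 47 and 57 in the SF-3-030+HDM libraries.

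House dust mite alone called none of the 59 genes. In edgeR's quasi-likelihood test with Benjamini-Hochberg adjustment over all genes, 0 were higher and 0 lower in HDM than in PBS, where 2.32% of all 26235 genes tested were called higher and 0.294% lower. DESeq2 and limma-voom also called 0 in either direction. At an unadjusted p under 0.05 there were 0 higher and 2 lower, Foxj1 and Cfap161, where 6.65% of all genes were higher and 4.17% lower, so that count is not above the background. The log2 fold changes ran from -0.56 to 0.12 with a median of -0.17, against -0.09 over all genes, and 51 of the 59 were negative, against 61.0% of all genes. Without HDM replicate 3, the median was -0.03 and 30 of the 59 were negative. The HDM libraries lay wholly below the PBS libraries in 7 genes (Foxj1, Cfap161, Cfap126, Drc7, Dnah1, Dnah7a and Rsph3a) and wholly above in 0, against 5.97% and 5.28% of all genes.

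SF-3-030 with mite, against mite alone, gave 1 gene higher and 3 lower of the 59. The outer arm dynein gene Dnah8 rose, and Foxj1, the nexin link gene Drc7 and the spoke head gene Rsph9 fell. Among all genes tested, 3.43% were called higher and 6.06% lower, so the 5.08% of cilium genes called lower is near the background. The median log2 fold change was -0.26, against -0.03 over all genes. Libraries did not overlap in 1 gene upward and 9 downward, against 15.1% and 22.4% of all genes. With RLE or upper-quartile scaling the split was 1 higher and 6 lower (10.2% lower), where 3.06% and 2.14% of all genes were higher and 6.26% and 5.68% lower.

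SF-3-030 with mite, against PBS, gave 1 gene higher and 15 lower, with 43 not called. Dnah8 rose again. The fallen genes were both regulators, 4 of 9 radial spoke genes tested, 3 of 9 doublet proteins, 3 of 15 inner arm genes, and 1 each among the rulers and nexin link, the central pair and the others. No outer arm heavy chain gene fell. The outer arm intermediate chain gene Dnaic2, outside the naming rule, did fall and is given below. Among all genes, 11.8% were called higher and 18.1% lower, against 25.4% of the cilium genes lower, a difference of shares that was not tested. Both shares varied with the processing, as given below. The median log2 fold change was -0.44, against -0.10 over all genes. Libraries did not overlap in 2 genes upward, Dnah8 and Cfap97, and in 19 downward, against 17.0% and 21.8% of all genes. The count of lower genes was 7 without SF-3-030+HDM replicate 2 and 8 without replicate 3, and the share of all genes called lower fell as well, to 7.17% and 8.90%. This comparison shares its libraries with the other 2, so the sets of calls are not independent.

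**Figure D2:**
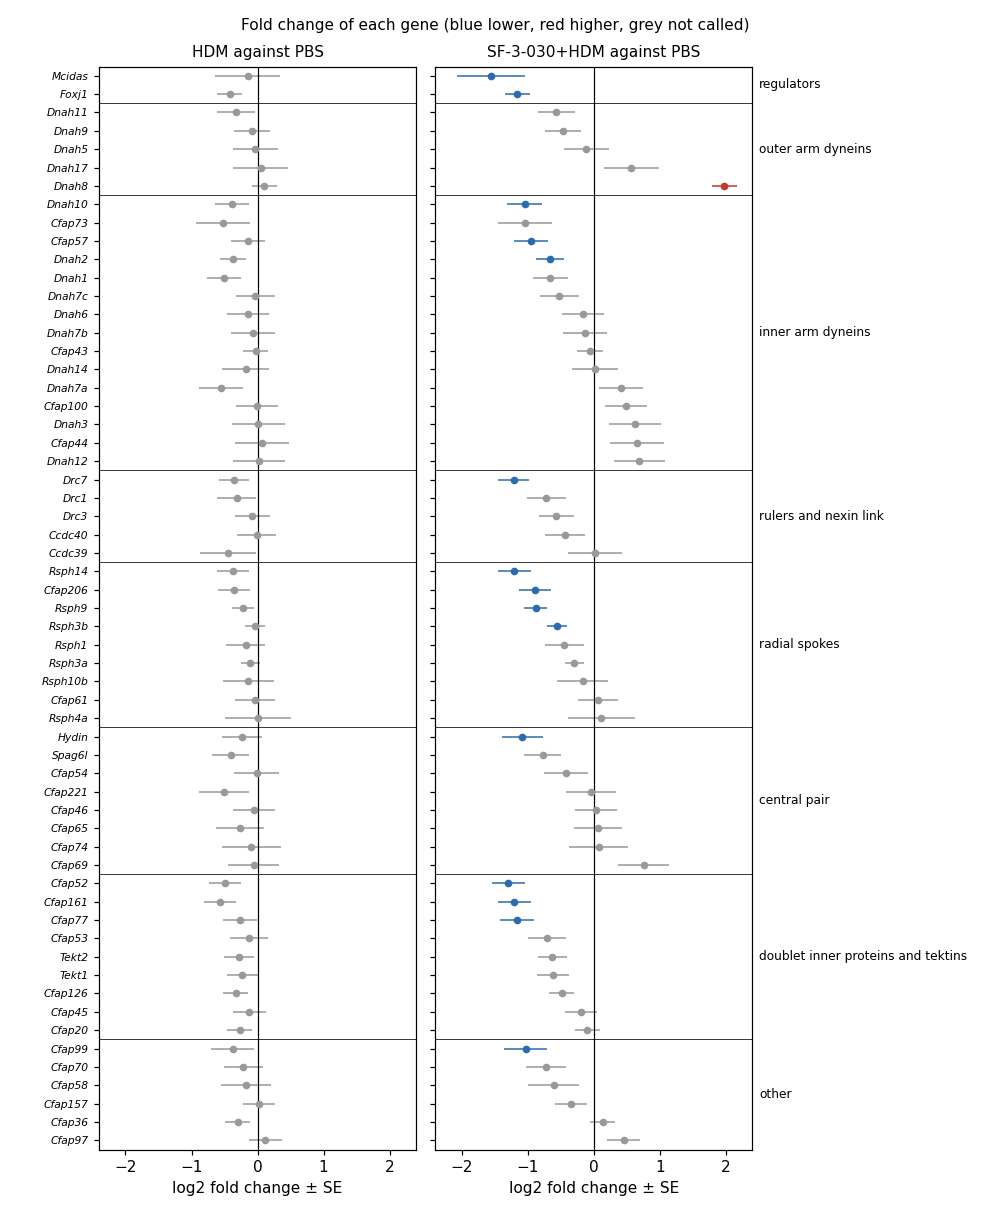
Points give the log2 fold change of each gene with its standard error, in HDM against PBS on the left and in SF-3-030+HDM against PBS on the right, grouped by role. No point is coloured on the left, and on the right 15 are blue (lower) and 1, Dnah8, is red (higher).

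Of the regulators, Foxj1 was the more abundant. It stood at 241, 143, 156 and 139 CPM in PBS, 111, 128 and 120 CPM in HDM, and 89.5, 67.0 and 64.5 CPM in SF-3-030+HDM. The 3 groups did not overlap, and PBS replicate 1 lay far above the rest. Foxj1 was 2.23-fold lower in SF-3-030+HDM than in PBS (log2 fold change -1.16 ± 0.19 SE, edgeR adjusted p = 0.00148), a call kept in all 22 alternative fits. Against HDM it was lower by a log2 fold change of -0.74 ± 0.20 (edgeR adjusted p = 0.0417), a call lost without PBS replicate 4, HDM replicate 2 or 3, or any SF-3-030+HDM library. It was also lost with upper-quartile scaling (edgeR adjusted p = 0.0509) and with a covariate for receptor background (0.233) or for Y-linked expression (0.147). The same held with the replicate number as a block and without the 3 libraries with Y-linked expression. Every SF-3-030+HDM library had less receptor background than all other libraries, and none had Ddx3y reads. Neither covariate can therefore be fully separated from the groups compared, for this gene or any other. Between HDM and PBS the Foxj1 value was -0.42 ± 0.19 (edgeR adjusted p = 0.431).

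Mcidas was near the limit of these libraries, with 508 reads over all 10. PBS libraries had 2.76, 0.705, 0.555 and 1.45 CPM, HDM libraries 0.973, 0.822 and 1.66 CPM, and SF-3-030+HDM libraries 0.526, 0.405 and 0.381 CPM. All 3 SF-3-030+HDM values were below every other library, but the PBS values spread widely. The 3 highest, PBS replicates 1 and 4 and HDM replicate 3, were the same libraries that carried the most olfactory and vomeronasal receptor reads. The log2 fold change against PBS was -1.56 ± 0.52 (edgeR adjusted p = 0.0407). With a covariate for that background it was 0.035, and the call was kept in 8 of 22 alternative fits; it was lost without PBS replicate 1 or 4, HDM replicate 1 or 2, or any of the SF-3-030+HDM libraries.

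**Figure D3:**
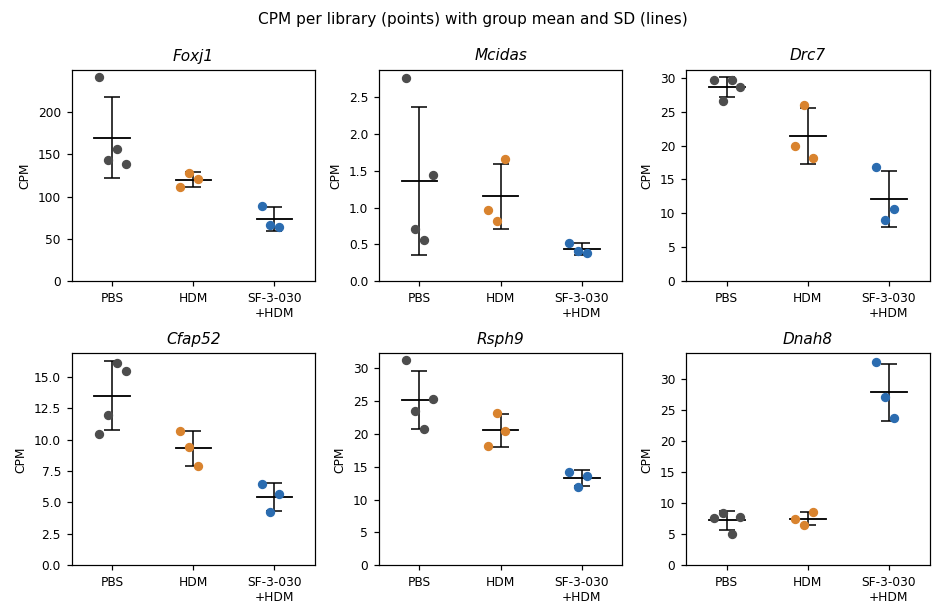
Points are single libraries in CPM, from left to right by replicate number, with lines at the group mean and whiskers of 1 SD, for both regulators, Drc7, Cfap52, Rsph9 and Dnah8. Foxj1, Drc7, Cfap52 and Rsph9 are lowest in SF-3-030+HDM, and Dnah8 is at 23.8 to 32.8 CPM there against at most 8.59 CPM elsewhere.

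Among the outer arm motors, Dnah8, a heavy chain best known from sperm tails, changed most. It had 7.60, 8.47, 5.00 and 7.83 CPM in PBS, 7.45, 6.46 and 8.59 CPM in HDM, and 32.8, 27.1 and 23.8 CPM in SF-3-030+HDM. PBS and HDM overlapped, and SF-3-030+HDM lay above both. The gene was 3.93-fold higher than in PBS (log2 fold change 1.97 ± 0.19, edgeR adjusted p = 3.98e-05) and 3.65-fold higher than in HDM (1.87 ± 0.21, edgeR adjusted p = 0.000272). Both calls were kept in all 22 alternative fits. Per length its mean rose from 0.603 in PBS to 2.27 in SF-3-030+HDM. Over 16 male germ cell markers the summed level was 9.49 to 13.1 CPM in SF-3-030+HDM, 11.6 to 18.4 CPM in HDM and 14.5 to 21.6 CPM in PBS, so SF-3-030+HDM lay below PBS but overlapped HDM, and Odf1, Prm2, Pgk2 and Akap4 were under 0.1 CPM in every library. Of the 10 tested, Ddx4 was called higher and Acrv1 and Spata18 lower against PBS, where 11.8% of all genes were higher and 18.1% lower. Spata18 had the highest mean level of the 16, so the sum need not follow the other markers.

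Dnah8 lies on chromosome 17 at 30624354 to 30877365 (GRCm38, forward strand), and its neighbours were examined after its values were seen. Glo1, the glyoxalase gene on the opposite strand whose annotated span overlaps the start of Dnah8, had 75.5, 72.7 and 75.2 CPM in SF-3-030+HDM against 46.6 to 63.0 CPM in the other libraries, without overlap. Its log2 fold change was 0.41 ± 0.16 against PBS (edgeR adjusted p = 0.0788). Glp1r, the receptor gene on the other side 0.0245 Mb away, went the opposite way: 1.44, 2.07 and 2.02 CPM in SF-3-030+HDM against 6.27 to 17.1 CPM elsewhere, a log2 fold change of -2.87 ± 0.43 against PBS (edgeR adjusted p = 0.000849). Btbd9, 0.0479 Mb away, had 31.9 to 35.2 CPM in SF-3-030+HDM and 31.4 to 42.4 CPM elsewhere and was not called. H2-Ea-ps, which marked the libraries as set apart by genotype, is on the same chromosome 3.46 Mb away. Genotype and treatment cannot be told apart for Dnah8 or its neighbours. Exons of Dnah8 overlap opposite-strand genes over 650 bases of 26820, and the counting is not stated to use strand.

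**Figure D4:**
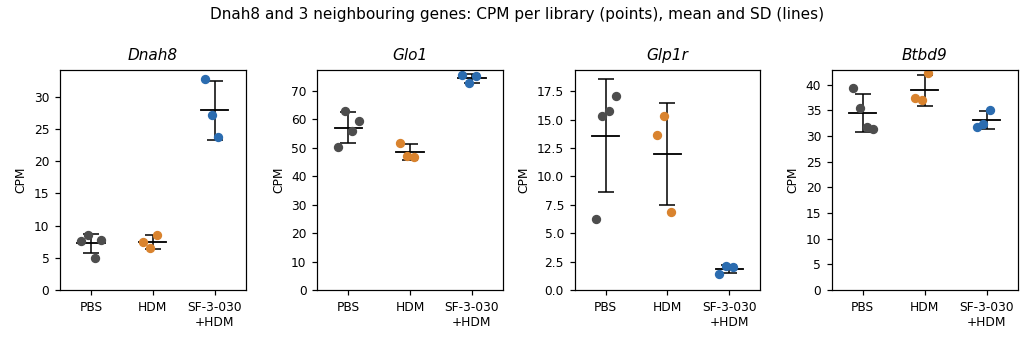
CPM of Dnah8 and of 3 neighbouring genes by group, with points for libraries, lines for means and whiskers of 1 SD. The SF-3-030+HDM points of Dnah8 and Glo1 lie above all others, those of Glp1r at 1.44 to 2.07 CPM lie below all others, and those of Btbd9 overlap with the rest.

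The other outer arm heavy chains were not called in any comparison. Dnah5, a core motor of airway cilia, had 23.5, 37.0, 31.4 and 35.5 CPM in PBS, 38.8, 35.0 and 16.3 CPM in HDM, and 45.2, 22.5 and 20.99 CPM in SF-3-030+HDM. Its highest and its lowest libraries were in the treated groups, and all groups overlapped. Dnah9, its partner heavy chain towards the tip, had 22.4, 28.9, 33.8 and 29.9 CPM in PBS, 31.99, 28.5 and 18.7 CPM in HDM and 29.9, 15.3 and 17.2 CPM in SF-3-030+HDM. Dnah11, a counterpart towards the base, had 11.7, 14.7, 16.4 and 14.3 CPM in PBS, 13.9, 12.7 and 6.46 CPM in HDM and 12.6, 9.34 and 7.01 CPM in SF-3-030+HDM. In both, the lowest PBS library lay inside the range of the treated groups. Their log2 fold changes in SF-3-030+HDM against PBS were -0.11 ± 0.34, -0.46 ± 0.28 and -0.57 ± 0.29. The sperm heavy chain Dnah17 stood at 0.948 to 4.39 CPM over all libraries. The intermediate chains Dnai1 and Dnai2 appear in the table under the older symbols Dnaic1 and Dnaic2, which the naming rule does not reach. Dnaic2 had 26.05, 22.0, 27.3 and 26.6 CPM in PBS, 21.2, 20.6 and 13.7 CPM in HDM and 17.6, 8.78 and 10.3 CPM in SF-3-030+HDM, and fell against PBS (log2 fold change -1.04 ± 0.25, edgeR adjusted p = 0.0113). Dnaic1 had 13.4, 14.1, 13.1 and 16.98 CPM in PBS, 11.6, 12.8 and 8.91 CPM in HDM and 14.9, 8.62 and 8.99 CPM in SF-3-030+HDM. All HDM libraries but not all SF-3-030+HDM libraries lay below PBS, and the gene was not called.

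The inner arm set split in direction. Dnah10, Dnah2 and Cfap57 fell in SF-3-030+HDM against PBS, by log2 fold changes of -1.05 ± 0.26, -0.66 ± 0.21 and -0.95 ± 0.26 (edgeR adjusted p = 0.0138, 0.0320 and 0.0204). Dnah10 went from 34.4, 26.7, 35.7 and 20.95 CPM in PBS down to 19.1, 14.3 and 8.996 CPM in SF-3-030+HDM. All 3 calls were lost without SF-3-030+HDM replicate 2 or 3, and that of Dnah2 also without PBS replicate 3 or 4 or HDM replicate 2. The heavy chains Dnah12 and Dnah3 and the tether gene Cfap44 had positive values, 0.69 ± 0.39, 0.63 ± 0.40 and 0.66 ± 0.41, none of them called. Cfap44 had 7.17, 15.2, 14.9 and 13.8 CPM in PBS, 19.7, 13.4 and 6.40 CPM in HDM and 31.2, 18.5 and 11.7 CPM in SF-3-030+HDM, so the groups overlapped. Cfap43, which works with Cfap44 to tether the inner arm dynein f, had 72.9, 71.6, 69.0 and 61.7 CPM in PBS, 77.2, 63.6 and 53.9 CPM in HDM and 87.9, 60.7 and 47.7 CPM in SF-3-030+HDM, with a log2 fold change of -0.06 ± 0.20 against PBS. Dnah7a, Dnah7b and Dnah7c are near-identical copies whose reads the counting may have split, and none was called.

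Ccdc39 and Ccdc40, which together form the ruler that sets the spacing of arms and spokes, were not called. Ccdc40 had 22.4, 38.7, 38.1 and 38.1 CPM in PBS, 37.5, 37.9 and 23.9 CPM in HDM and 36.0, 18.1 and 21.8 CPM in SF-3-030+HDM. PBS replicate 1 lay inside the range of the treated libraries. Ccdc39 had 8.21, 9.66, 9.55 and 8.77 CPM in PBS, 11.4, 5.34 and 2.74 CPM in HDM and 14.3, 8.59 and 4.74 CPM in SF-3-030+HDM, with the widest range in the treated groups. Of its bases, 1256 of 7443 in exons overlap Ttc14 on the opposite strand. Of the nexin-dynein regulatory complex, Drc7 fell: it had 29.6, 26.6, 29.7 and 28.7 CPM in PBS, 19.997, 25.97 and 18.2 CPM in HDM and 16.8, 8.98 and 10.7 CPM in SF-3-030+HDM. The 3 groups did not overlap. Drc7 was 2.32-fold lower in SF-3-030+HDM than in PBS (log2 fold change -1.21 ± 0.23, edgeR adjusted p = 0.00336), kept in all 22 alternative fits, and lower than in HDM (-0.86 ± 0.24, edgeR adjusted p = 0.0455). The latter call was lost without PBS replicate 4, any HDM library, or SF-3-030+HDM replicate 2 or 3. It was also lost with limma-voom, with either covariate, with the replicate number as a block, and without the 3 libraries with Y-linked expression. Drc1 and Drc3, of the same complex, had log2 fold changes of -0.72 ± 0.29 and -0.57 ± 0.26 against PBS and were not called. Drc1 had 21.1, 25.997, 27.98 and 34.1 CPM in PBS, 26.6, 23.7 and 13.3 CPM in HDM and 22.3, 11.9 and 15.2 CPM in SF-3-030+HDM. Drc3 had 28.3, 30.4, 28.7 and 37.98 CPM in PBS, 30.02, 35.4 and 19.99 CPM in HDM and 29.5, 17.2 and 16.4 CPM in SF-3-030+HDM. In both, SF-3-030+HDM replicate 1 was the library that overlapped PBS.

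Radial spoke genes held 4 of the 15 that fell. Rsph9, a spoke head gene, had 31.3, 23.5, 20.8 and 25.3 CPM in PBS, 18.1, 23.1 and 20.4 CPM in HDM and 14.3, 11.9 and 13.7 CPM in SF-3-030+HDM. PBS and HDM overlapped, and SF-3-030+HDM lay below both. It was lower than in PBS by a log2 fold change of -0.88 ± 0.17 (edgeR adjusted p = 0.00418) and lower than in HDM by -0.66 ± 0.18 (edgeR adjusted p = 0.0441). The call against HDM was lost without PBS replicate 4, HDM replicate 2 or 3, or any SF-3-030+HDM library. Other fits that lost it were limma-voom, either covariate, the replicate number as a block, and the fit without the 3 libraries with Y-linked expression. With the covariate for receptor background, the value against PBS had an adjusted p of 0.0607 in edgeR. Rsph14 had 9.42, 5.96, 5.82 and 6.99 CPM in PBS, 4.56, 5.93 and 4.91 CPM in HDM and 4.003, 3.16 and 1.84 CPM in SF-3-030+HDM, where every library lay below all others (log2 fold change -1.20 ± 0.25, edgeR adjusted p = 0.00606), and its call was also lost with that covariate, at an edgeR adjusted p of 0.108. Cfap206, at the base of the second spoke, fell by a log2 fold change of -0.89 ± 0.24 (edgeR adjusted p = 0.0191), a call lost without SF-3-030+HDM replicate 2 or 3. The stalk gene Rsph3b fell by -0.55 ± 0.15 (edgeR adjusted p = 0.0196), lost without SF-3-030+HDM replicate 1 or 2, and shares near-identical sequence with Rsph3a, which was not called.

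The other spoke head genes behaved differently from Rsph9 in value, though no difference between genes was tested. Rsph1 had 21.7, 45.0, 44.0 and 48.0 CPM in PBS, 33.8, 38.9 and 29.9 CPM in HDM and 37.7, 23.7 and 26.3 CPM in SF-3-030+HDM. Rsph4a had 2.89, 13.6, 10.5 and 14.5 CPM in PBS, 13.2, 12.4 and 5.17 CPM in HDM and 16.8, 9.27 and 8.34 CPM in SF-3-030+HDM. In both, PBS replicate 1 was the lowest of all 10 libraries and the groups overlapped. Their log2 fold changes against PBS were -0.44 ± 0.30 and 0.12 ± 0.50.

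In the central pair, Hydin, which builds a projection of the central microtubules, was the gene that fell. It had 17.2, 25.5, 30.3 and 25.4 CPM in PBS, 26.1, 22.3 and 12.5 CPM in HDM and 16.2, 9.15 and 9.66 CPM in SF-3-030+HDM, where every library lay below PBS. The log2 fold change was -1.08 ± 0.31 (edgeR adjusted p = 0.0249), lost without PBS replicate 3 or SF-3-030+HDM replicate 2 or 3. Spag6l had 15.2, 15.9, 14.9 and 15.04 CPM in PBS, 14.9, 11.3 and 6.93 CPM in HDM and 11.9, 5.81 and 8.63 CPM in SF-3-030+HDM. PBS and SF-3-030+HDM did not overlap, at a log2 fold change of -0.77 ± 0.28 (edgeR adjusted p = 0.0557). Cfap69 was at the other end of the class with 0.75 ± 0.38. It had 6.52, 10.3, 12.4 and 8.53 CPM in PBS, 14.6, 6.84 and 5.50 CPM in HDM and 23.1, 17.5 and 7.87 CPM in SF-3-030+HDM, overlapping, and was not called.

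Among the proteins inside the doublets, Cfap52, Cfap161 and Cfap77 fell in SF-3-030+HDM against PBS. Cfap52 had 10.4, 12.0, 16.1 and 15.5 CPM in PBS, 10.6, 9.38 and 7.89 CPM in HDM and 6.42, 4.24 and 5.64 CPM in SF-3-030+HDM, and Cfap161 had 14.9, 15.7, 16.4 and 17.0 CPM, then 12.4, 11.7 and 7.14 CPM, then 9.24, 5.36 and 5.98 CPM. The SF-3-030+HDM libraries lay below all PBS libraries in both genes, and in Cfap52 also below all HDM libraries. Their log2 fold changes were -1.30 ± 0.25 and -1.21 ± 0.25 (edgeR adjusted p = 0.00364 and 0.00558), kept in all 22 alternative fits. Cfap77 stood at -1.16 ± 0.26 (edgeR adjusted p = 0.00834). Tekt1 and Tekt2, whose tektin filaments run inside the doublet wall, had -0.62 ± 0.24 and -0.63 ± 0.22 and were not called (edgeR adjusted p = 0.0671 and 0.0530). Tekt1 had 17.4, 21.02, 19.2 and 22.9 CPM in PBS, 17.6, 19.7 and 12.1 CPM in HDM and 16.8, 10.7 and 11.5 CPM in SF-3-030+HDM. Tekt2 had 9.93, 10.9, 11.2 and 13.3 CPM in PBS, 8.41, 11.1 and 7.25 CPM in HDM and 8.68, 7.05 and 6.07 CPM in SF-3-030+HDM. In both tektins every SF-3-030+HDM library lay below every PBS library. Cfap53 had 7.18, 11.2, 9.06 and 8.50 CPM in PBS, 9.42, 8.64 and 5.81 CPM in HDM and 8.05, 4.85 and 3.70 CPM in SF-3-030+HDM, at -0.70 ± 0.29 and not called. Cfap126, known as Flattop, had 28.2, 29.2, 27.6 and 27.2 CPM in PBS, 20.9, 21.98 and 21.7 CPM in HDM and 27.7, 16.8 and 14.995 CPM in SF-3-030+HDM, so that HDM but not SF-3-030+HDM lay wholly below PBS.

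Of the 6 others, Cfap99 fell by a log2 fold change of -1.03 ± 0.33 (edgeR adjusted p = 0.0360), at 0.738 to 1.31 CPM in SF-3-030+HDM. Its call was kept in 10 of 22 alternative fits and was lost without PBS replicate 2, 3 or 4, HDM replicate 2, or any SF-3-030+HDM library. Cfap97 had 22.0, 20.8 and 17.4 CPM in SF-3-030+HDM against 10.2 to 17.2 CPM in PBS, without overlap and not called (0.45 ± 0.25). Cfap298 and Cfap300, known for dynein assembly, are in the table as 1110004E09Rik and 9230110C19Rik, outside the rule, and neither was called. 1110004E09Rik had 38.9, 43.1, 35.5 and 42.9 CPM in PBS, 35.2, 34.1 and 34.1 CPM in HDM and 40.3, 30.4 and 33.3 CPM in SF-3-030+HDM. 9230110C19Rik had 2.44, 3.83, 3.34 and 4.40 CPM in PBS, 3.39, 3.505 and 1.85 CPM in HDM and 3.25, 2.13 and 2.31 CPM in SF-3-030+HDM. All HDM libraries of the former lay below PBS, and the other groups overlapped.

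The genes also differed in how they varied between libraries of the same group. In 16 of the 59, SF-3-030+HDM replicate 2 had at least 1.5 times the CPM of replicate 3, up to 2.47 times in Cfap74; in 22 it had less, down to 0.673 times in Spag6l. The former 16 had a median annotated exon length of 9588 bases and include Cfap65, Cfap69, Dnah3, Dnah12 and Ccdc39, and the latter 22 had 3064 bases and include Drc7, Cfap52, Cfap77 and Rsph9. The sets were mixed. The 16 also hold Dnah10 and Rsph14 (16086 and 3012 bases), both called lower against PBS. The 22 also hold Dnah6, Dnah9 and Cfap61 (13247, 15949 and 10606 bases), not called. A ratio between 2 other libraries, HDM replicate 1 over replicate 2, was a median of 1.66 in the 16 and 1.06 in the 22. The sets were drawn after the values were seen and are given as a description. By call, the 15 genes lower in SF-3-030+HDM than in PBS had a median exon length of 2988 bases and the 43 not called 6030 bases; the part of transcript length or RNA quality in these differences was not tested.

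**Figure D5:**
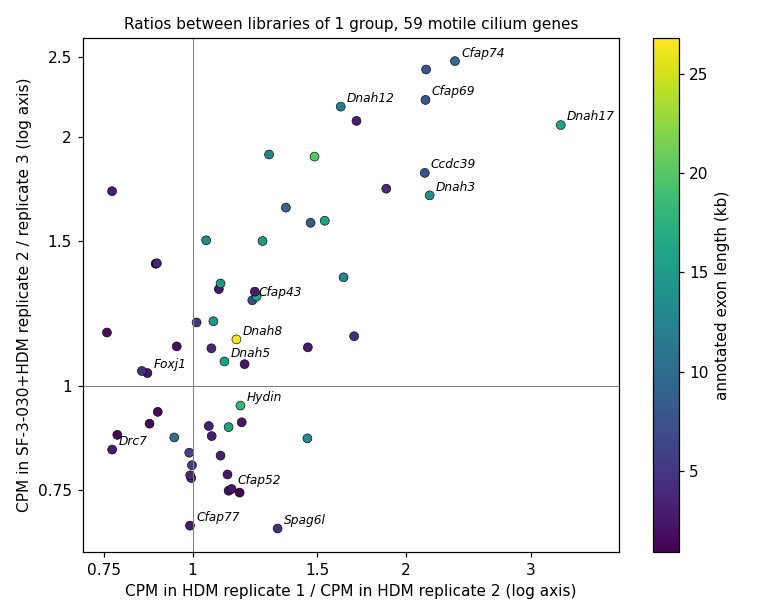
Each point is a gene: the x axis gives its CPM in HDM replicate 1 over replicate 2, the y axis its CPM in SF-3-030+HDM replicate 2 over replicate 3, both on log axes, and colour gives annotated exon length. Genes such as Cfap74, Cfap69 and Dnah3 are above 1.5 on both axes, while Drc7 and Cfap52 are below 1 on the y axis.

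Other ciliary genes, from lists of the same machinery, showed calls in the same direction and some in the other. Of 26 genes of multiciliation and ciliary transcription, 3 fell and 3 rose in SF-3-030+HDM against PBS. That is 11.5% each way, where 18.1% of all genes were called lower and 11.8% higher. Gmnc, which acts upstream of multicilin, had 1.19, 2.52, 3.42 and 1.89 CPM in PBS, 0.771, 0.411 and 0.202 CPM in HDM and 0.782, 0.373 and 0.237 CPM in SF-3-030+HDM, so the treated groups overlapped each other and lay below PBS. Its log2 fold change was -2.30 ± 0.58 against PBS (edgeR adjusted p = 0.0137), and -2.27 ± 0.58 in HDM against PBS (edgeR adjusted p = 0.0659). Ccno, next to Mcidas on chromosome 13 and needed for centriole amplification, fell by -1.12 ± 0.23 (edgeR adjusted p = 0.00564). Trp73 fell too, while Tfdp1, Plk4 and Stil, which also serve dividing cells, rose. Neither HDM over PBS nor the compound over mite alone gave a call among the 26 (0 of 26 in each).

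Dynein assembly factors had 2 of 15 lower against PBS, Dnaaf1 and Zmynd10 (log2 fold changes -0.86 ± 0.22 and -0.61 ± 0.18). Light chains, docking and adaptor genes had 6 of 19 lower, among them Calml4 and Dynlrb2, and 2 higher, Tctex1d2 and Dynlt1a (1.00 ± 0.20 and 0.98 ± 0.23). Central pair, spoke and nexin genes outside the naming rule had 9 of 30 lower and 0 higher. The lowest p was that of Morn3, with 4.79, 5.78, 5.11 and 6.10 CPM in PBS, 3.77, 3.84 and 3.54 CPM in HDM and 1.41, 1.48 and 0.925 CPM in SF-3-030+HDM, the 3 groups not overlapping (log2 fold change -2.08 ± 0.23 against PBS, edgeR adjusted p = 0.000116). Tcte1, of the nexin link, Spef1, of the central pair, and Ttc29 were the next (-1.35 ± 0.28, -0.65 ± 0.14 and -1.23 ± 0.32).

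Doublet and tip genes outside the rule had 15 of 50 lower and 1 higher, Nme7 (0.80 ± 0.14). Tppp3, a tubulin-binding protein gene of ciliated cells that other lung cells also use, was the gene of all ciliary lists that fell in HDM against PBS: it had 1135, 530, 660 and 713 CPM in PBS, 299, 364 and 318 CPM in HDM and 240, 175 and 185 CPM in SF-3-030+HDM. Its log2 fold change was -1.13 ± 0.22 in HDM against PBS (edgeR adjusted p = 0.0178) and -1.87 ± 0.23 in SF-3-030+HDM against PBS (edgeR adjusted p = 0.000191). Intraflagellar transport genes, which all cilia need, had 5 of 29 lower, led by Ift22 and Dync2li1, and 1 higher, Ift20 (0.66 ± 0.16). Primary cilium and hedgehog genes, of cilia that do not beat, had 4 of 29 lower, Evc, Evc2, Pkd1 and Gli1. In SF-3-030+HDM against HDM the calls in these lists included Morn3, Tcte1, Evc and Evc2 lower and Nme7, Dynlt1a and Ift20 higher. Among all genes, 18.1% were called lower and 11.8% higher against PBS, and 6.06% and 3.43% against HDM, which are the background to these counts. Against PBS the shares called lower were 13.3% for assembly factors, 17.2% for intraflagellar transport and 13.8% for primary cilium genes, below that background. They were above it for light chains, docking and adaptors (31.6%), central pair, spoke and nexin genes (30%) and doublet and tip genes (30%). Dynlrb2 was in both the light chain list and the doublet and tip list, so those shares are not from wholly separate genes. The differences of all these shares from the background were not tested.

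Markers of other lung cells moved in the same comparison, where 18.1% of all genes were called lower and 11.8% higher. Against PBS, 7 of 16 club cell markers fell in SF-3-030+HDM, among them Scgb3a2, with a summed level of 28224 to 47970 CPM in PBS, 18436 to 24145 CPM in HDM and 19461 to 24977 CPM in SF-3-030+HDM. Of alveolar type 1 markers 8 of 14 fell, led by Aqp5, with 11617 to 13006, 7918 to 9417 and 6375 to 7439 CPM in the same order. All 8 heart muscle markers fell, with 444 to 1007, 379 to 580 and 161 to 256 CPM in that order. Goblet markers rose in 6 of 10, led by Itln1, with 191 to 1173, 1468 to 1688 and 1310 to 4710 CPM, so SF-3-030+HDM overlapped HDM. Basal markers rose in 5 of 7, led by Krt5, with 7.57 to 13.1, 12.2 to 17.0 and 18.8 to 34.1 CPM. Other lists moved less or both ways: alveolar type 2 markers had 4 lower and 1 higher of 15, neuroendocrine markers 1 lower and 2 higher of 8, and tuft cell markers 1 lower and 1 higher of 5. None of the markers in these lists was at 0 in every library. In HDM against PBS, where 0.294% of all genes were lower and 2.32% higher, 3 of 16 club markers and 1 of 8 heart markers fell. In the same comparison 2 of 10 goblet, 1 of 7 basal and 1 of 15 alveolar type 2 markers rose, and no alveolar type 1, neuroendocrine, tuft or germ cell marker was called. Against HDM, 6.06% of all genes were lower and 3.43% higher in SF-3-030+HDM. There, 4 of 16 club, 4 of 8 heart, 3 of 15 alveolar type 2 and 1 of 14 alveolar type 1 markers fell. Goblet markers rose in 2 of 10 and basal markers in 2 of 7. Neuroendocrine markers had 1 lower and 1 higher of 8, and no tuft or germ cell marker was called. The part of these shifts in the cilium gene values was not tested.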

How the data were processed

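Lung RNA of 10 mouse libraries was enriched for mRNA and sequenced on an Illumina HiSeq, per the labels' protocols. Trimmomatic 0.36, STAR 2.5.2b and the build GRCm38 are named in the submitters' processing notes; the counter, annotation and strand setting were not given in the sources used here. The authors deposited expected counts per gene, not whole in 86.9% to 90.6% of filled cells per library, and normalized log2 values, which the authors deposited beside them and which were not tested here. Blank cells (34.4%) were read as 0 and counts were rounded.

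Lengths, overlaps and positions came from GENCODE vM21. CPM divides a count by its library's sum and multiplies by 1000000, and 38667118 to 59083942 counts per library set its precision. Genes passing edgeR's filterByExpr (26235) were fitted in 1 model over the 3 groups (edgeR 4.0.16, TMM scaling, quasi-likelihood test, two-sided contrasts), with Benjamini-Hochberg adjustment over all of them and a threshold of 0.05. Standard errors were derived from each log2 fold change and its F statistic. The edgeR, DESeq2 and limma-voom fits were tested on simulated data. DESeq2 1.42.0, limma-voom 3.58.1, other scalings and filters, a replicate block, covariates, and leaving out libraries were alternatives, of which 22 give each gene an adjusted p.

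The cilium genes and the lists were chosen with earlier results of these data known. Genes named were a panel of 27 core ciliary genes, up to 6 called genes a direction and comparison by p, up to 4 called genes a list, and those at the ends of a range. Same-numbered libraries were not treated as pairs. Some called genes of the lists are counted but not named, and 1 result is not reported here.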

Additional observations from a re-analysis of the deposited data

Results flagged for a closer look

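In PBS, 5 of the 59 genes examined had a library that stood apart from the other 3, all in PBS replicate 1. Chance alone marks about 1 group in 20 in such a check, so the count of 5 is not shown to be above chance. Over all genes tested, PBS replicate 1 was highest of its group in 51.25% and lowest in 27.18%, against 20.34% and 59.32% of the 59. Foxj1 was highest there at 241 CPM, while Ccdc40 was lowest at 22.4 CPM, Rsph1 at 21.7 CPM, Cfap44 at 7.17 CPM and Cfap54 at 6.82 CPM. The same library had the lowest total count, 38667118, and the most olfactory and vomeronasal receptor reads, 453 CPM; the part of either in these values was not tested. The groups of 3 were not examined in this way.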

How the results depend on the processing

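Counts of cilium genes called higher stayed at 0, 1 and 1, and 0 were called lower in HDM against PBS, in all 23 alternatives. The count called lower in SF-3-030+HDM against HDM, 3, was not stable: it was 6 with RLE scaling, upper-quartile scaling or no filter, 7 with a minimum of 1 CPM in 3 libraries or with only the 2 groups fitted, 9 with DESeq2, 1 with limma-voom or a covariate for receptor background, and 10 without the 3 libraries richest in that background. It was 0 at a threshold of 0.01, with a covariate for Y-linked expression and without the 3 libraries that had it. Leaving out 1 library gave 0 to 8, with 8 without PBS replicate 1, 1 without SF-3-030+HDM replicate 1 and 0 without PBS replicate 4, HDM replicate 2 or 3, or SF-3-030+HDM replicate 2 or 3. The share of all genes called lower moved too: it was 6.06% as reported, 6.26% with RLE, 5.68% with upper-quartile scaling, 5.77% with no filter, 5.74% at 1 CPM, 8.01% with 2 groups, 14.4% with DESeq2, 2.04% with limma-voom, 2.81% with the background covariate, 7.96% without the libraries richest in background, 1.13% at 0.01, 1.72% with the Y-linked covariate, 0.922% without those libraries, and 1.07% to 9.13% leaving out 1 library.

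Against PBS, the count called lower, 15, was 27 with upper-quartile scaling, 25 with DESeq2, 23 with the minimum of 1 CPM and 7 at a threshold of 0.01. It was 13 with limma-voom (22.0%, against 7.69% of all genes) and 11 with the background covariate (18.6% against 7.11%). Without the 3 libraries richest in background it was 20 (33.9% against 11.3%), and leaving out 1 library gave 7 to 20. Mcidas turned from -1.56 to 0.035 with the background covariate, which overlaps with the groups compared. The causes were not tested. Upper-quartile scaling moved the median of all genes to -0.19 against HDM and -0.31 against PBS, and the cilium genes' medians to -0.40 and -0.60. Over all genes, the share called lower against PBS was 18.1% as reported, 23.3% with upper-quartile scaling, 24.7% with DESeq2, 15.7% at 1 CPM, 5.0% at 0.01 and 7.17% to 19.98% leaving out 1 library. Genes with reads numbered 28929 to 30689 in SF-3-030+HDM libraries, 36334 to 39609 in HDM and 33371 to 39506 in PBS. The part of that in the share of all genes called lower was not tested.

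Replicate numbers did not pair the libraries: deviations of same-numbered libraries correlated at -0.63 to 0.18. With the replicate number as a block, 0 genes were lower against HDM (1.55% of all genes) and 7 against PBS (4.30%). Leaving out a library that leaves a group with few members assumes that they vary like the rest.

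Depth limits Rsph6a, with 9.15 expected reads over all libraries, and Mcidas, with 508. With 3 or 4 libraries a group, a gene that misses the threshold is not shown to be unchanged.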
